A study of Drosophila melanogaster with 40 samples.

Results

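RNA-Seq profiles of Drosophila S2 cells held at constant 25°C, 10 consecutive libraries in all, were compared as 2 blocks, the 5 libraries from CT54 to CT66 against the 5 libraries from CT69 to CT81. The 10 libraries were chosen by their time labels out of the 40 samples of the series. CT is the circadian time in hours, sampling was every 3 h from CT24 to CT81, and each time point is 1 library, so consecutive time points stand in for replicates. Of the 15863 loci in the 25°C table, 7089 had at least 0.9 FPKM (fragments scaled to transcript length and to the mapped reads of the library) in every one of the 10 libraries and were compared. The boundary between CT66 and CT69 was itself picked from values of these data, so the counts at 25°C describe the course and do not test whether a boundary exists.

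S2 cells are an established line from late Drosophila embryos that resembles hemocytes, the blood cells of the fly, and all groups grew in Schneider's medium. The 25°C cells were first entrained by a week or more of temperature cycles, 12 h at 23°C alternating with 12 h at 28°C, received their last medium at time 0, and were then kept at constant 25°C, where polyadenylated RNA was sequenced. The 28°C cells, used below for comparison at the same CT, had 2 days of temperature cycles and then constant 28°C, and their libraries were made from total RNA depleted of ribosomal RNA. For them the paper lists the 12 h at 28°C first and states no medium change at time 0. The same CT may therefore differ between the courses in phase and in time since the last medium. The table of the 28°C libraries was normalised apart from the 25°C table. The 2 blocks differ in the phase of the day and in the time since the last medium as well as in their place in the course, and these cannot be told apart.

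Cells obtain energy by glycolysis, which splits glucose into pyruvate in the cytosol, and by respiration, in which the tricarboxylic acid cycle and the respiratory chain of mitochondria oxidise pyruvate and drive ATP synthase. Lactate dehydrogenase turns pyruvate into lactate and regenerates the NAD+ that glycolysis uses. In flies, trehalose and glycogen are the main sugar stores, the hypoxia factor Sima acts on glycolytic genes when oxygen is low, and the ATF4 factor Cryptocephal acts on amino acid genes when amino acids are short.

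Glycolytic, glycogen and trehalose transcripts rose across the boundary, most of them with their largest step between CT66 and CT69, while transcripts of the respiratory chain, ATP synthase and the tricarboxylic acid cycle fell. Transcripts of ribosome biogenesis fell as well. The small heat shock genes Hsp23 and Hsp26 rose both before the boundary, from CT63 to CT66, and within the later block. Over all loci, limma with Benjamini-Hochberg adjustment called 1570 loci higher in CT69 to CT81, 22.1% of those compared, and 1980 lower, 27.9%. Most of these differences were small, with a median of 0.23 (1.17-fold) among the loci called higher and -0.24 (0.847-fold) among those called lower, on the log2(FPKM + 1) scale that all log2 differences use here. On that scale 49 loci rose and 12 fell by at least 1. The blocks did not overlap at 1094 loci that were higher, 15.4%, and at 1369 that were lower, 19.3%. A locus is called abrupt below where the blocks did not overlap and the step from CT66 to CT69 had the sign of the block difference, made up at least 0.5 of it, and was larger than each of the 8 steps inside the blocks. By this rule 543 loci (7.66%) were abrupt and higher and 702 (9.90%) abrupt and lower. These shares, and those above for calls and for blocks without overlap, are the background of every list count below. With a straight line over time added to the limma fit, the boundary step passed the threshold upwards at 192 loci (2.71%) and downwards at 379 (5.35%). Because these p-values measure only the scatter between time points of 1 course, the calls rank the loci and describe them.

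**Figure D1:**
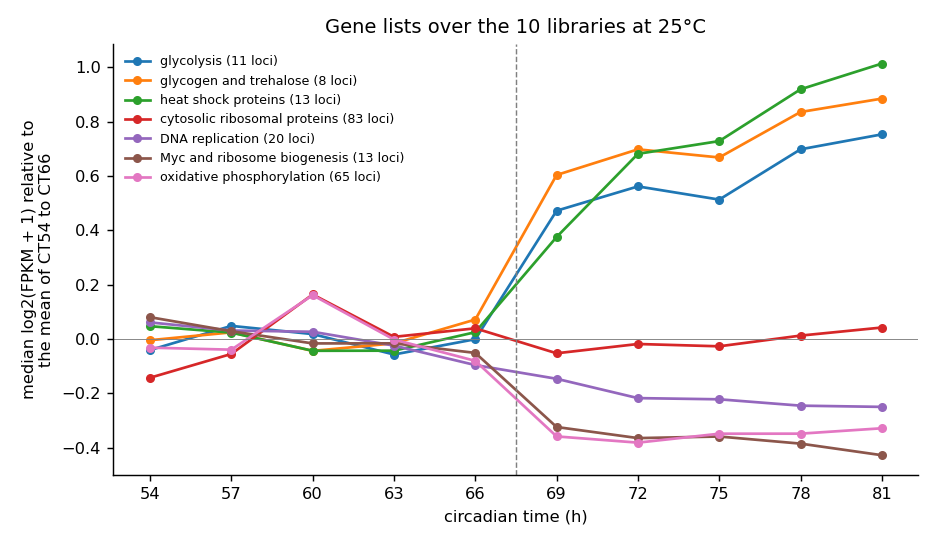
Median change of 7 groups of genes in the 10 libraries at 25°C. The horizontal axis is CT in hours and the vertical axis the log2(FPKM + 1) value relative to each gene's mean over CT54 to CT66, as the median over the members of a group. The glycolytic and the glycogen and trehalose medians lie above the CT54 to CT66 libraries from CT69 on, while the oxidative phosphorylation median lies below them.

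Ldh, lactate dehydrogenase, carried one of the largest changes (locus at 3L 6252205 to 6255794, dm3). It stood at 177, 176, 173, 169.7 and 246 FPKM from CT54 to CT66 and at 840.2, 969.9, 986, 1289 and 1279 FPKM from CT69 to CT81. The 5 later libraries all lay above the 5 earlier ones, CT66 was the highest of the earlier block, and the level went on rising to CT78. The means of 188 ± 32.5 and 1073 ± 201 FPKM (SD, n = 5 libraries) differed 5.69-fold (log2 difference 2.50 ± 0.13 SE, limma adjusted p = 2.20e-07). The step from CT66 to CT69 was 1.77 on the log2 scale, against at most 0.54 for any step inside a block. From CT39 to CT51 the level ranged from 131 to 415 FPKM, so levels above those of CT54 to CT66 had also occurred earlier in the course.

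The sugar chain rose as a whole. All 11 measured glycolytic genes were called higher, none of them overlapped between blocks, and all 11 were abrupt, with a median log2 difference of 0.57 beside -0.01 over all loci. With a line over time, the boundary step passed in 8 of the 11. Pfk, phosphofructokinase, which commits sugar to glycolysis, was at 53.8, 55.3, 51.5, 50.7 and 54.9 FPKM and then at 91.8, 103, 96.2, 115.1 and 114 FPKM. The earlier block was flat and every later library was above it, at 1.95 times its mean (log2 difference 0.95 ± 0.06 SE, adjusted p = 6.23e-07). Pgi, which interconverts glucose and fructose phosphates, rose 1.93-fold, and the hexokinase Hex-A, which traps glucose, rose 1.94-fold from 27.6 to 53.7 FPKM on average. Tpi, triosephosphate isomerase, rose 1.73-fold and Gapdh1 1.42-fold. PyK, pyruvate kinase, changed least of the 11, from 260.02 to 305 FPKM (1.17-fold, adjusted p = 0.000454). Gapdh1 and Gapdh2 are close copies, so reads may be split between them and their separate values are uncertain.

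Genes that release stored sugar rose with them. Of 8 glycogen and trehalose genes, 7 were called higher, none lower, 6 were abrupt, 6 passed with a line over time, and the median log2 difference was 0.73. Glyp, glycogen phosphorylase, stood at 90.8, 93.9, 83.6, 86.0 and 97.0 FPKM before the boundary and at 172, 191, 181, 208 and 207 FPKM after it. These values do not overlap, and the step of 0.82 made up most of the log2 difference of 1.08 ± 0.06 (SE, adjusted p = 2.20e-07). From CT39 to CT51 Glyp had ranged from 78.1 to 128 FPKM. Pgm1, phosphoglucomutase, which links glycogen to glycolysis, rose 2.29-fold from 54.9 ± 5.17 to 126 ± 21.7 FPKM (SD, n = 5). The enzymes that build glycogen rose too, Glys (glycogen synthase) 1.38-fold and AGBE (the branching enzyme) 1.65-fold, and Treh (trehalase) rose 1.75-fold. Tret1-1, a trehalose transporter, was called higher but had its CT69 value of 9.68 FPKM inside the earlier range and reached 22.8 FPKM at CT78, so its rise came after the boundary. UGP, the only one of the 8 that was not called, differed by 0.07.

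In the hypoxia group, 6 of 8 genes were called higher and none lower, and 1 passed with a line over time. Besides Ldh these included sima, the HIF-alpha factor, at 30.6, 29.9, 24.6, 28.6 and 29.0 FPKM and then 38.8, 43.5, 42.6, 55.1 and 53.98 FPKM (log2 difference 0.68 ± 0.09 SE), and Vhl, part of the ligase that removes Sima, at 0.62. Hph, the prolyl hydroxylase that marks Sima for removal, was at 78.3, 75.7, 74.9, 75.3 and 60.2 FPKM and then at 113, 127, 128, 208 and 207 FPKM. Its CT66 library was the lowest of the 10, and it rose in 2 stages, at CT69 and again at CT78. Scyl, a Sima target that restrains TOR, had a log2 difference of 0.42, whereas its paralogue chrb (-0.03) and the pyruvate dehydrogenase kinase Pdk (0.02) were not called.

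**Figure D2:**
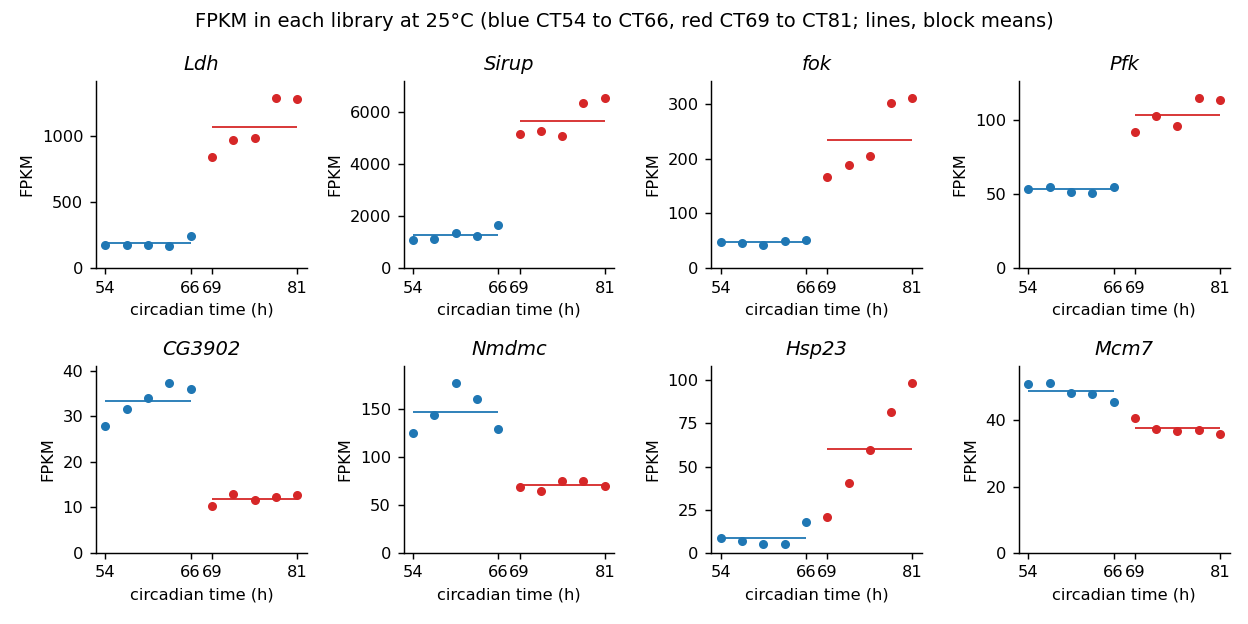
FPKM in each of the 10 libraries at 25°C for Ldh, Sirup, fok, Pfk, CG3902, Nmdmc, Hsp23 and Mcm7. The horizontal axis is CT in hours, the vertical axis FPKM, points are single libraries and horizontal lines are block means. Ldh, Sirup, fok and Pfk jump up and CG3902 and Nmdmc drop between CT66 and CT69, whereas Hsp23 climbs over CT69 to CT81 and Mcm7 declines over the whole window.

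The pentose phosphate pathway branches off glycolysis and supplies NADPH and ribose. Of its 7 measured genes, 6 were called higher and none lower, with a median of 0.24, and 0 passed with a line over time. Zw, the glucose-6-phosphate dehydrogenase that opens it, was at 7.54, 8.68, 9.84, 9.12 and 11.1 FPKM and then at 15.6, 17.4, 14.6, 16.9 and 16.1 FPKM, with no overlap (log2 difference 0.75 ± 0.08 SE, adjusted p = 2.18e-05). Taldo, transaldolase, rose 1.67-fold from 180.2 to 300.4 FPKM on average.

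Mitochondrial transcripts fell. All 65 measured oxidative phosphorylation genes, which code for complexes I, III and IV, cytochrome c and ATP synthase, were called lower, against 27.9% of all loci, and 60 of them did not overlap between blocks. The median log2 difference was -0.35, and all 65 stepped down from CT66 to CT69, 39 of them abruptly. The 33 genes of complex I had a median of -0.30, the 9 of complex III -0.40, the 9 of complex IV -0.41 and the 13 of ATP synthase -0.46. ATPsynbeta, the catalytic beta subunit of ATP synthase, showed the pattern with little scatter, at 561, 574, 588, 556 and 549 FPKM before the boundary and at 408, 401, 387, 387 and 406 FPKM after it. Both blocks were nearly flat and lay apart by a log2 difference of -0.51 ± 0.03 (SE, adjusted p = 6.01e-07). The subunit gene sun, ATP synthase epsilon, fell most, by 0.59, from 669 ± 79.2 to 443 ± 16.8 FPKM (SD, n = 5). It was already at 556 FPKM at CT66, its lowest value in the earlier block, as was ox, a complex III subunit, at 228 FPKM. With a line over time, the boundary step of 31 of the 65 genes passed the threshold downwards.

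The tricarboxylic acid cycle list, pyruvate dehydrogenase included, held 21 measured genes, of which 17 were called lower and 2 higher, with 13 of the lower ones abrupt and 9 past the threshold with a line over time. The citrate synthase kdn, which feeds acetyl units into the cycle, was at 118, 109, 108, 110.1 and 107 FPKM and then at 71.3, 74.4, 72.3, 69.4 and 73.1 FPKM. All later libraries lay below the earlier ones, and the step of -0.58 equals nearly the whole log2 difference of -0.61 ± 0.03 (SE, adjusted p = 3.09e-07). Idh3b, an isocitrate dehydrogenase subunit, fell by 0.40 and SdhA, the succinate dehydrogenase flavoprotein, by 0.33. From CT39 to CT51 Idh3b had ranged from 55.9 to 69.4 FPKM, against a mean of 59.8 FPKM after the boundary. The genes that rose were Mdh1, the cytosolic malate dehydrogenase (0.36), and PCB, pyruvate carboxylase (0.26), which refills the cycle. Ogdh and Idh were not called, at -0.08 and -0.04.

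Mitochondrial ribosomal protein genes and the single mitochondrial genes named next lay on the same side. These single genes do not stand for all mitochondrial genes. Of 74 mitochondrial ribosomal protein genes, 58 were called lower and none higher (median -0.22), with 17 abrupt and 8 past the threshold with a line over time. The mitochondrial chaperones Hsp60A, which folds imported proteins, and Hsc70-5 were the heat shock genes called lower (4 genes were called lower without the CT66 library). Hsp60A was at 282, 293, 304, 295 and 267 FPKM and then at 188, 190.1, 181, 197 and 194 FPKM, without overlap (log2 difference -0.60 ± 0.04 SE). The mitochondrial antioxidant enzymes Prx3 (-0.76) and Sod2 (-0.33) and srl, the fly PGC-1 homologue that acts on mitochondrial genes (-0.44), were also lower. The 83 cytosolic ribosomal protein genes had a median of -0.01, with 9 called lower and none higher, although 6 were called higher without CT60 and 1 without CT66 or without CT69. Short loci were called lower more often than long ones in these libraries, 35.1% of the shortest of 4 length classes against 16.7% of the longest, and the oxidative phosphorylation genes had a median length of 794.5 bases. The cytosolic ribosomal protein genes were of like length, with a median of 865 bases, and the part of length in these results was not tested.

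**Figure D3:**
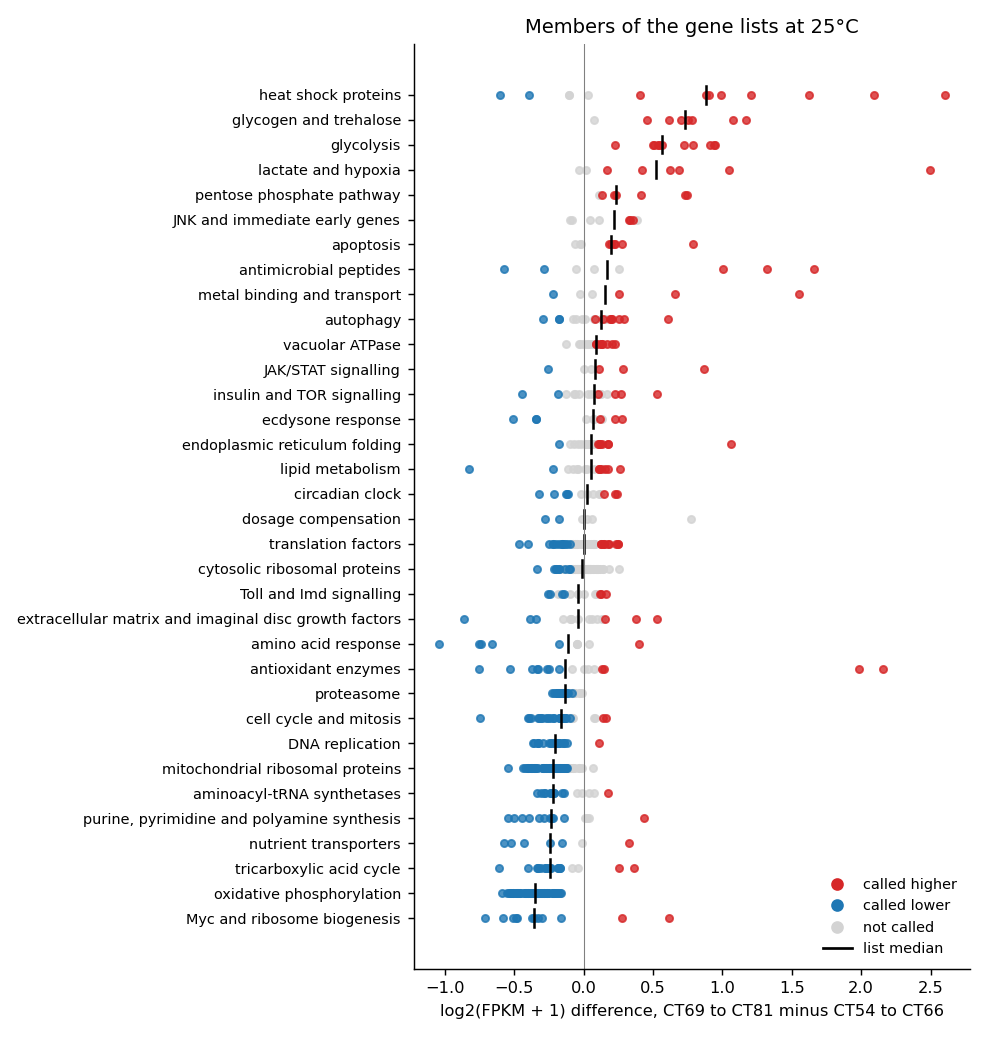
Log2(FPKM + 1) difference, CT69 to CT81 minus CT54 to CT66 at 25°C, for the measured genes of each group (horizontal axis), 1 point per locus, coloured by whether limma called it higher, lower or neither, with a black bar at the group's median. All 11 glycolytic genes lie on the higher side and all 65 oxidative phosphorylation genes on the lower side, while the 83 cytosolic ribosomal protein genes lie around 0.

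How sharply the levels changed differed between loci. Of the loci called by limma, 34.3% of the higher and 35.4% of the lower ones were abrupt, and for 20.7% and 21.6% the boundary step made up less than 0.25 of the difference. Over all loci the step was not uniquely large. Its median size of 0.10001 was close to the 0.0999 of the step from CT57 to CT60, and the smallest of the 9 steps was 0.0474. Large changes did gather there, since 244 loci moved by at least 0.5 between CT66 and CT69, 132 up and 112 down, against 51 to 102 in the other steps of the window. The step from CT51 to CT54, at the start of the window, was of like size, with a median of 0.109 and 242 loci that moved by at least 0.5. It ran opposite to the boundary step in several named genes, such as Dbct (4.97 to 11.4 FPKM), Idh3b (56.9 to 77.5 FPKM) and Glyp (128 to 90.8 FPKM). In ImpL2 (953 to 1009 FPKM) it ran the same way.

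**Figure D4:**
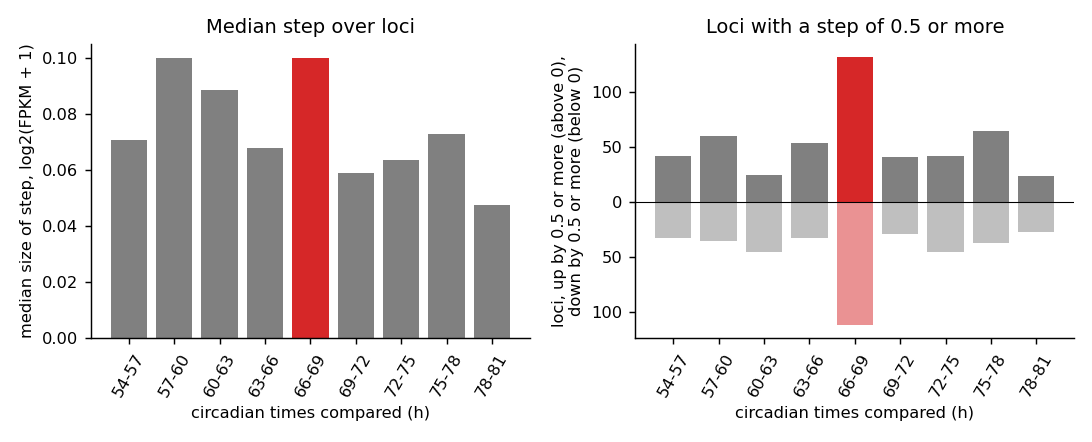
Size of the 9 steps between consecutive libraries of the window over the 7089 loci. The horizontal axes give the pair of CT compared in hours; the left vertical axis is the median absolute step in log2(FPKM + 1) and the right one the number of loci that rose (above 0) or fell (below 0) by at least 0.5. The boundary step, in red, is matched by CT57 to CT60 in its median but has more loci past 0.5 than any other step shown, 132 up and 112 down.

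Among the loci with the largest abrupt rises, Sirup, named as a starvation-upregulated protein, was also the most abundant (2L 7998869 to 8004286). It stood at 1091, 1122, 1334, 1225 and 1644 FPKM and then at 5144, 5283, 5066, 6334 and 6541 FPKM. The blocks were far apart, 4.42-fold in their means, with a step of 1.64 out of a log2 difference of 2.15 ± 0.11 (SE, adjusted p = 2.20e-07). It had reached up to 3342 FPKM from CT39 to CT51. The locus fok (2L 20075757 to 20091348) was at 48.2, 45.4, 42.2, 49.99 and 51.9 FPKM and then at 167, 189, 205, 301 and 310.4 FPKM, a step of 1.66 followed by a further increase between CT75 and CT78. CG9521, a GMC oxidoreductase (X 14733409 to 14847730), was at 17.9, 18.1, 21.7, 24.3 and 42.9 FPKM and then at 113, 134, 138, 173 and 188 FPKM. Its CT66 library had already left the level of the others, so part of its rise came before the boundary. The level of CG9521 from CT39 to CT51 had been 11.5 to 46.4 FPKM.

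Among called loci without overlap and with a mean of at least 5 FPKM in 1 block, the largest difference was at a locus that holds MFS3, a major facilitator transporter, and lncRNA:CR45717. It was at 19.2, 20.1, 21.6, 26.2 and 59.9 FPKM and then at 171, 234, 258, 337 and 359 FPKM, 9.26-fold between means (log2 difference 3.26 ± 0.29 SE). A step of 1.16 from CT63 to CT66 came before the boundary step of 1.503, which made up 0.461 of the difference and so fell short of the abrupt class. CBP, a calcium-binding protein, showed the same shape at a lower level, with 6.55 FPKM at CT66 against 1.70 to 2.62 FPKM in the other earlier libraries and 14.4 to 23.0 FPKM in the later ones.

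The 5 largest abrupt steps downwards were at CG3902, NijB, CG16762, Ak6 and Dbct. CG3902, a short/branched-chain acyl-CoA dehydrogenase (3L 18885483 to 18891393), was at 27.8, 31.7, 34.1, 37.4 and 36.0 FPKM and then at 10.2, 12.9, 11.5, 12.3 and 12.8 FPKM. The drop took place in the single step of -1.72, which exceeded the block difference of -1.41 ± 0.08 (SE, adjusted p = 3.04e-07), and the level from CT39 to CT51 had been 8.75 to 26.3 FPKM. NijB, a ninjurin, is listed at the same coordinates, and its fall by 0.91 is not independent of that of CG3902. Dbct, the E2 subunit of branched-chain keto acid dehydrogenase, was at 11.4, 12.0, 11.3, 12.1 and 10.2 FPKM and then at 4.61, 3.49, 3.21, 3.12 and 3.36 FPKM, lower in every later library. Its level from CT39 to CT51 had been 4.97 to 10.0 FPKM. CG16762 fell from 5.48 ± 0.815 to 2.13 ± 0.281 FPKM (SD, n = 5) with a step of -1.10. The globin gene glob1 fell from 31.9 ± 3.65 to 13.4 ± 2.11 FPKM (SD, n = 5). Further abrupt falls were seen in Ak6 (0.343-fold), in out, a gene of the monocarboxylate transporter family (0.394-fold), and at the locus of CG11089, a bifunctional enzyme of purine synthesis, and CG31381 (0.441-fold).

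Enzymes of serine, folate and asparagine synthesis, which act downstream of ATF4 in mammals, also fell. In the amino acid response list, 5 of 10 genes were called lower and 1 higher, and 4 of the lower ones passed with a line over time. Nmdmc, the mitochondrial methylenetetrahydrofolate dehydrogenase, was at 125, 143, 177, 161 and 129 FPKM and then at 68.6, 64.9, 74.4, 74.4 and 69.3 FPKM. AsnS, asparagine synthetase, was at 107, 111, 125, 114 and 102 FPKM and then at 75.5, 65.2, 65.2, 63.4 and 61.1 FPKM. Neither gene overlapped between blocks, and both had been low before CT54 as well, at 42.6 to 62.0 FPKM for Nmdmc and 61.0 to 69.5 FPKM for AsnS from CT39 to CT51, so their high values were those of CT54 to CT66. The phosphoserine aminotransferase CG11899 (-0.74) and the phosphoserine phosphatase aay (-0.66) complete the serine branch. The factor crc itself, the kinases PEK and Gcn2, and trbl were not called, while Sesn, a stress-induced inhibitor of TOR, rose by 0.40.

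Genes next to these in amino acid use moved the same way. Of 7 nutrient transporters, 5 were called lower and 1 higher. The amino acid transporter path was at 864, 904, 911, 965 and 864 FPKM and then at 609, 573, 618, 624 and 609 FPKM, apart by a log2 difference of -0.57 ± 0.04 (SE, adjusted p = 8.84e-07), after 368 to 551 FPKM from CT39 to CT51. Cbs, cystathionine beta-synthase, which opens the route from homocysteine to cysteine, was at 133, 134, 146, 132 and 125 FPKM and then at 79.3, 79.2, 76.4, 76.5 and 74.5 FPKM. Both blocks were tight and separate. Of the 18 aminoacyl-tRNA synthetases, 13 were called lower and 1 higher (median -0.22) and 2 passed with a line over time, with SerRS at -0.33 and ThrRS at -0.31.

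Genes of ribosome biogenesis and nucleotide synthesis fell moderately. Of 13 Myc and ribosome biogenesis genes, 10 were called lower and 2 higher (median -0.36, 8 abrupt, 7 past the threshold with a line over time), led by nop5, a core protein of the particles that methylate ribosomal RNA, which went from 151 ± 11.7 to 92.1 ± 7.64 FPKM (SD, n = 5). The genes called higher were Mnt (0.61), whose protein opposes Myc, and the Myc locus itself (0.28). Of 14 genes of purine, pyrimidine and polyamine synthesis, 10 were called lower and 1 higher, with 9 abrupt and 8 past the threshold downwards with a line over time, among them Prat, the first step of purine synthesis, at 33.4, 32.2, 33.8, 32.1 and 34.7 FPKM and then 24.5, 21.8, 21.0, 22.5 and 22.9 FPKM. The later values all lay below the earlier ones. The 47 translation factors were near the shares over all loci (22.1% higher and 27.9% lower), with 9 called higher, 13 lower and a median of 0.00, and eIF6, needed for large ribosomal subunits, fell by 0.46.

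Cell cycle genes fell with a small share of their change at the boundary. Of 20 DNA replication genes, 19 were called lower and 1 higher (median -0.21). Among them 2 were abrupt and lower and 1 abrupt and higher, beside 9.90% and 7.66% of all loci. The boundary step made up a median of 0.28 of their difference, against 0.586 over all called loci. With a line over time in the limma fit, the boundary step passed the threshold in 0 of the 20. Mcm7, a subunit of the replicative helicase, shows the slope, at 51.005, 51.4, 48.4, 47.96 and 45.7 FPKM and then 40.9, 37.5, 36.8, 37.2 and 36.0 FPKM. Each block declined and the later one lay below the earlier, with a step of -0.16. Of 32 cell cycle and mitosis genes, 24 were called lower and 2 higher, and the abrupt ones were stg, the Cdc25 phosphatase that admits cells to mitosis, which fell from 217 ± 20.7 to 129 ± 13.5 FPKM (SD, n = 5), and feo, a PRC1 homologue of the central spindle, which fell by 0.40. Proteasome genes were likewise gradual, with 20 of 31 called lower, 0 higher and 0 abrupt.

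The small heat shock genes Hsp23 and Hsp26 climbed before and after the boundary rather than at it. Of 13 heat shock genes 8 were called higher and 2 lower. Hsp23, a small chaperone, was at 8.81, 6.58, 5.28, 5.05 and 18.0 FPKM and then at 20.6, 40.2, 59.8, 81.9 and 98.6 FPKM. It rose in every later step and its CT66 library was apart from the 4 before it. The boundary step was 0.19 on the log2 scale, beside a log2 difference of 2.60 ± 0.40 (SE, limma adjusted p = 0.000255). It made up a share of 0.072 of that difference. Its largest step in the window, 1.65, was from CT63 to CT66. Hsp26 took the same course, from 19.2 FPKM at CT63 to 43.7 FPKM at CT66 and 209 FPKM at CT81. Hsf, the heat shock factor, was the exception, with an abrupt rise from 28.4 to 53.5 FPKM on average. Both Hsp23 (11.5 to 28.9 FPKM) and Hsp26 (43.8 to 96.2 FPKM) had been higher from CT39 to CT51 than at CT63.

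Some redox and metal genes also rose gradually, although the antioxidant list had 8 of 16 genes called lower, 5 of them abrupt, and 4 higher. Prx6c, a peroxiredoxin, was at 4.61, 3.93, 7.34, 10.2 and 15.6 FPKM and then at 17.0, 30.4, 36.9, 59.1 and 57.9 FPKM, and its neighbour Prx6b, a near-identical copy whose reads may not be separable, followed it. Their boundary steps of 0.12 and -0.07 were small beside log2 differences of 2.16 and 1.99. MtnA, a metallothionein that binds copper and other metals, rose 2.78-fold from 1449.5 to 4030.1 FPKM on average, and Fer1HCH, the ferritin heavy chain, 1.56-fold with a step of 0.01. In the endoplasmic reticulum list 7 of 19 genes were called higher, against 22.1% of all loci. In the same list 1 gene was called lower (2 without CT60 or without CT66), against 27.9%. Ero1L, the oxidase that forms disulphide bonds, stood apart with an abrupt 2.12-fold rise from 43.2 ± 3.00 to 91.6 ± 12.0 FPKM (SD, n = 5). The chaperones Gp93 and Hsc70-3 rose 1.13-fold.

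Single immune, death and matrix genes changed strongly. Of 8 antimicrobial peptide genes, 3 cecropins were called higher and 2 genes lower, beside 22.1% and 27.9% of all loci. Only 1 was called lower without CT57, CT60, CT66, CT72 or CT81. CecA2 was at 8.93, 7.97, 7.83, 7.10 and 13.5 FPKM and then at 30.8, 39.2, 26.1, 26.4 and 29.4 FPKM, and CecB rose 2.57-fold. From CT39 to CT51 CecA2 had ranged from 9.74 to 32.5 FPKM. The cecropins are close copies, so their separate values are uncertain. The 14 Toll and Imd signalling genes were at the shares over all loci, 3 higher and 4 lower against 22.1% and 27.9%, with cact (-0.24), the inhibitor of Dorsal and Dif, and Dif (-0.25) among the lower ones. Socs36E, a target and inhibitor of JAK/STAT, rose 1.89-fold from 52.4 ± 2.14 to 99.3 ± 26.5 FPKM (SD, n = 5), again with a second increase from 86.3 FPKM at CT75 to 129 FPKM at CT78. The apoptosis list had 6 of 9 genes higher and none lower, with the cell death inducer rpr at 4.78 to 5.91 FPKM before and 9.46 to 11.5 FPKM after the boundary and its opponent Diap2 up by 0.28. Of the 15 matrix genes 3 were called higher and 3 lower (5 without CT60), near the shares over all loci. The locus of Pxn, the matrix peroxidase of hemocytes, and lncRNA:CR45660 was at 36.0, 37.8, 37.6, 41.8 and 45.1 FPKM and then at 22.8, 20.1, 20.6, 22.0 and 21.2 FPKM. It had risen up to CT66 and then dropped below all earlier values in the window.

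In signalling and lipid lists single genes stood out. In the insulin and TOR list 4 of 16 genes were called higher, near the 22.1% of all loci, and 2 lower, under the 27.9%. ImpL2, a secreted antagonist of insulin, was at 1009, 1032, 951, 1014 and 985 FPKM and then at 1288, 1367, 1449, 1566 and 1562 FPKM, without overlap (log2 difference 0.53 ± 0.05 SE, adjusted p = 1.28e-05). Of 19 autophagy genes 8 were called higher and 3 lower, but 4 were called higher without CT57 or without CT81 and 5 without CT54 or without CT75, close to 22.1% of all loci, with Atg13, part of the initiating kinase complex, up by 0.61 and Atg1, its kinase, down by 0.29. Of 16 lipid genes 6 were called higher and 2 lower, against 22.1% and 27.9% of all loci. The triglyceride-forming acyltransferase mdy was at 16.9, 15.3, 16.4, 15.6 and 15.3 FPKM and then at 8.49, 8.48, 9.17, 8.13 and 8.32 FPKM, which is a step with no drift on either side (log2 difference -0.83 ± 0.04 SE). Of the JNK genes 3 of 8 were called higher, against 22.1% of all loci, and none lower (1 lower without CT66 or without CT75). Mmp1, a matrix protease, rose by 0.33 and puc, the phosphatase that feeds back on JNK, by 0.36.

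The remaining lists are given by their counts, beside 22.1% higher and 27.9% lower over all loci. Of 17 vacuolar ATPase genes, whose products acidify lysosomes, 8 were called higher and none lower (median 0.09), but 5 higher without CT81 and 1 lower without CT54. The metal list had 3 of 6 genes higher and 1 lower, and JAK/STAT signalling 3 of 6 higher and 1 lower. Of 10 ecdysone response genes 3 were called higher and 3 lower, near the shares over all loci, with the ecdysone receptor EcR at 0.23 and its target ftz-f1 at 0.27. In one-carbon metabolism 3 of 4 genes were lower, as were both measured genes of adenosine metabolism and 2 of 6 dosage compensation genes, lncRNA:roX2 (-0.27) and msl-3 (-0.18).

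The 4 expressed clock genes had log2 differences between -0.32 and 0.24. Of 13 clock-related genes measured, 3 were called higher and 5 lower, beside 22.1% and 27.9% of all loci. The repressor cwo was at 21.9 ± 1.85 FPKM before and 26.1 ± 1.03 FPKM after the boundary (SD, n = 5), and cyc, the partner of Clock, at 19.2 ± 1.02 and 21.3 ± 0.743 FPKM, so both were called higher at 0.24 and 0.14. Pdp1, an activator of the clock loop, fell by 0.32, from 34.6 to 27.4 FPKM on average, with overlapping blocks. The repressor vri, at 3.30 ± 0.434 and 3.64 ± 0.391 FPKM, was not called (log2 difference 0.11 ± 0.08 SE, adjusted p = 0.262).

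The boundary at the same CT was tested in the 28°C libraries, which the choice of blocks had not used. There 2965 loci passed the floor and limma called 0 of them, with a smallest adjusted p of 0.0603. At an unadjusted p under 0.05 there were 296 higher (9.98%) and 183 lower (6.17%), and the blocks did not overlap at 78 loci that were higher (2.63%) and 47 that were lower (1.59%). The median standard error was 0.372 at 28°C against 0.0495 at 25°C, so differences of the size seen at 25°C were mostly not detectable there. The loci called higher at 25°C were higher at 28°C in 52.7% of 873 shared cases, those called lower in 51.8% of 726, and all shared loci in 52.0%. For abrupt loci the shares were 46.7% of 317 abrupt higher loci, with a median log2 difference of -0.06 at 28°C, and 59.3% of 273 abrupt lower loci, with a median of 0.16, so neither set leaned towards its 25°C direction. The exact permutation test of block means gave 0 calls at 28°C too, but its smallest possible p of 0.007937 left it little room over 2965 loci. Without the CT81 library the 28°C counts were 95 higher and 47 lower, and CT81 stood apart from CT69 to CT78 in several of the genes below. CT81 was not among the thinnest 28°C libraries. CT60, CT63 and CT78 had the fewest loci at the floor, 4111, 5372 and 5103, against 5904 to 6921 in the others. A fit without CT60, CT63 and CT78, which was not planned beforehand, called 0 loci higher and 0 lower. A locus had to reach the floor in every library, CT60 included, to be among the 2965.

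Single groups and genes at 28°C ran in both directions. Of all loci at 28°C, 52% were higher and 48% lower. Of 11 glycolytic genes, 10 were higher there, 5 of them at an unadjusted p under 0.05, with a median of 0.53, but 33 of 45 oxidative phosphorylation genes (median 0.24) and 17 of 19 tricarboxylic acid cycle genes (median 0.49) were higher as well. Of 15 cell cycle genes, 13 were lower, with a median of -0.38. Ldh was at 65.2, 147, 57.2, 244 and 143 FPKM and then at 216, 255.04, 293, 228 and 254 FPKM at 28°C, higher but with overlap (log2 difference 1.11, unadjusted p = 0.00686 and adjusted p = 0.144 by limma). Sirup was at 823, 1325, 1189.9, 1073 and 1197 FPKM and then at 99.7, 162, 53.9, 113 and 1430.04 FPKM, a fall where the 25°C libraries had a rise, except in CT81 (log2 difference -2.69, limma adjusted p = 0.0766). CG3902 was at 16.0, 20.3, 46.4, 19.6 and 26.3 FPKM and then at 67.2, 86.5, 62.2, 66.1 and 17.7 FPKM, again opposite to 25°C except in CT81 (1.12, adjusted p = 0.221). The transporter path fell at both temperatures, at 28°C from 294 to 157 FPKM on average without overlap (-0.85, adjusted p = 0.102). Whether the differences at the 2 temperatures themselves differ was not tested, since the tables differ in RNA selection and coverage and were normalised apart.

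**Figure D5:**
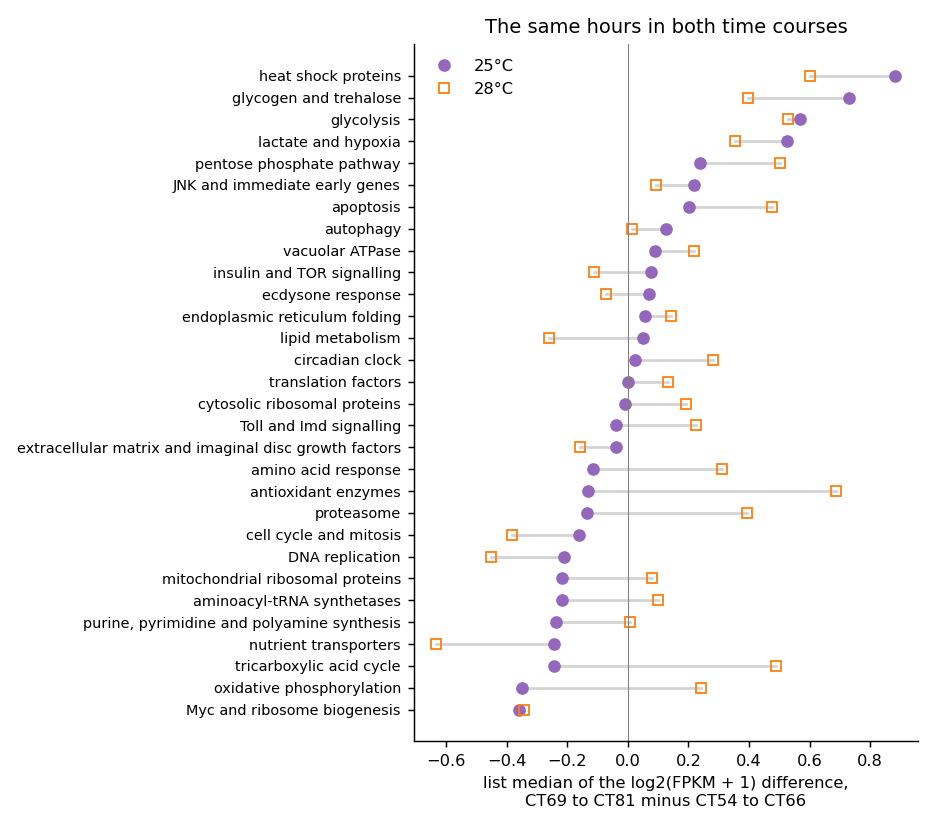
Median log2(FPKM + 1) difference of each group of genes, CT69 to CT81 minus CT54 to CT66 (horizontal axis), at 25°C (filled circles) and at 28°C (open squares), joined by a line; the numbers of measured genes per group differ between temperatures. Glycolysis is positive at both (0.57 and 0.53), while oxidative phosphorylation is negative at 25°C (-0.35) and positive at 28°C (0.24).

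The libraries of the 2 blocks were alike in scale. Relative depth, taken from the value of 1 read, was 0.714 to 1.08 in CT54 to CT66 and 0.814 to 1.18 in CT69 to CT81, and the 10 highest loci held 12.0 to 14.0% and 12.7 to 13.4% of all FPKM. Between 7416 and 7471 loci reached the floor in the earlier libraries and 7494 to 7531 in the later ones, without overlap. Of the 10 hemocyte markers, Col4a1, vkg, crq, Pxn and the srp locus were well above the floor, while Hml, NimC1 and Sr-CI were at or near 0. The 10 markers summed to 763 to 930.1 FPKM before and 862 to 934 FPKM after the boundary. This sum was carried mainly by Col4a1 (means 339 and 371 FPKM) and vkg (248 and 275 FPKM). Single markers went both ways. The mean of crq rose from 120 to 146 FPKM and that of eater from 0.711 to 0.770 FPKM. The Pxn locus fell from 39.7 to 21.3 FPKM, the srp locus from 87.3 to 82.0 FPKM and He from 1.64 to 0.676 FPKM. Neuron markers, mainly elav and brp, summed to 11.2 to 14.2 and 15.6 to 16.4 FPKM, germ line markers, mainly osk, to 1.76 to 2.27 and 3.02 to 4.47 FPKM, and muscle, fat body, crystal cell and lamellocyte markers to at most 1.05 FPKM. In bulk RNA, fewer cells of a type and less RNA per cell cannot be told apart, and the part of cell composition in the results was not tested. The floor left out 487 loci with a mean of at least 0.9 FPKM, 65 of which would have been called higher and 26 lower. CG34454 was just inside with a lowest value of 0.905 FPKM, and CG32212 just outside with 0.897 FPKM.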

How the data were processed

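The authors aligned single-end reads to dm3 with TopHat v2.1.0 and made 1 deposited FPKM value per locus and library with Cufflinks, Cuffmerge, Cuffquant and Cuffnorm v2.2.1, separately for 25°C and 28°C. The submitters' processing notes also name SAMtools. Log2(FPKM + 1) values were compared with limma 3.58.1 in R 4.3.3 (lmFit, eBayes with trend, 2-sided), with Benjamini-Hochberg adjustment over all loci of at least 0.9 FPKM in each of the 10 libraries and a threshold of 0.05. Tables and figures were made in Python 3.11.15. The scripts were tested on simulated data.

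The members, the boundary and the gene lists were chosen with earlier results of these data known. Named genes were the 8 largest differences and the 5 largest abrupt steps per direction, up to 2 called genes per list, 4 clock genes, the 3 calls per direction with the smallest share at the boundary, and loci near the floor. Loci in short lists and others named beyond this rule were chosen after their values were seen. Names were matched for 99.7% of the loci, and 394 loci hold several genes. Coordinates are the spans deposited for the loci. Different loci can share a span, as CG3902 and NijB do, so a span need not be the position of the named gene alone. List entries Hop, Tor and nos were not matched, nor was any mitochondrially encoded gene, so none of these was compared. Alternatives were another pseudocount, floor, scaling, a line over time, all 20 libraries of a temperature, an exact permutation test, and leaving out libraries. No sequences were used here. FPKM carry no read counts, so no counting intervals are given. The p-values measure the scatter between single libraries of 1 course, and whether the cultures of a time point were pooled is not given in the sources used here.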

Additional observations from a re-analysis of the deposited data

Results flagged for a closer look

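In 15 of 192 blocks of named loci, 1 library lay apart from the other 4 by Dixon's criterion for 5 samples, which chance alone meets in about 1 in 20 independent groups. The loci were mostly picked from these same values, share the 10 libraries and follow a course in time. The 15 therefore cannot be judged against that rate. Of the 15, 9 were at CT66, the last library before the boundary, and 3 at CT69. At CT66 these were the high values of Ldh (246 FPKM), CG9521 (42.9 FPKM), the MFS3/lncRNA:CR45717 locus (59.9 FPKM), CBP (6.55 FPKM), CecA2 (13.5 FPKM) and osk (2.18 FPKM) and the low values of Hph (60.2 FPKM), Socs36E (48.7 FPKM) and mnd (95.7 FPKM). Of the low ones, Hph and Socs36E then rose and mnd fell, while all 6 high ones rose further. At CT69 AsnS (75.5 FPKM), Dbct (4.61 FPKM) and mnd (78.02 FPKM) were still above the rest of the later block. The other 3 were kdn at CT54 (118 FPKM), VhaM9.7-c at CT57 (41.7 FPKM) and RpS15Ab at CT60 (113 FPKM). Values near the boundary are time points of a changing course, and whether they are intermediate states or scatter of single libraries was not tested.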

How the results depend on the processing

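The linear time term changed most. With it 192 loci were called higher and 379 lower, and of the 95 named loci that were called 41 kept their call, 47 lost it and 7 turned direction without passing the threshold, namely Fip1 (0.0046), Hmgs (-0.018), Prosbeta2 (0.033), Prx6b (-0.23), Prx6c (-0.0070), Rpn3 (0.014) and Vha100-2 (-0.098). A line takes up part of any block difference in so short a course, and it also takes up a gradual change. How many of the lost calls go with either was not tested. Leaving out 1 library at 25°C gave 1364 to 1607 loci higher and 1766 to 2041 lower, and 545 to 803 abrupt higher and 684 to 1027 abrupt lower, the most without CT66. Without CT69 there were 747 abrupt higher and 1015 abrupt lower. In these 2 cases the boundary step runs over the missing time point, from CT63 to CT69 or from CT66 to CT72. The steps inside the blocks stay at 3 h, so these abrupt counts cannot be compared with the others. A boundary step of at least 0.75 of the difference left 342 abrupt loci higher and 424 lower, and without a floor the median boundary step was 0.0766. The exact permutation test called 1350 and 1675, median-of-ratios scaling 1670 and 1882, and no floor 1662 and 1850. At 28°C, fitting all 20 libraries called 9 higher and 3 lower, and leaving out 1 library 0 to 95 and 0 to 47, the most without CT81. No paired analysis was possible because each time point is 1 library and the numbers within a block name consecutive times.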
